A study of Mus musculus with 41 samples.

Results

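Among 29 epithelial mammary tumors that grew from transplanted Trp53-null tissue, the 10 with the highest interferon score, selected on measured values, were compared with the 10 with the lowest. Genes outside a list of interferon targets, made by name, are described. The list is not complete, and genes outside it may also be induced by interferon. The score of a tumor was the mean log2 ratio of tumor over reference signal of 5 interferon-induced genes (Ifit1, Isg15, Irf7, Oas2 and Usp18), so the interferon genes chose the groups and their difference is no finding. The 20 tumors were part of a series of 41, of which 29 carried the morphology label p53 variable, read here as epithelial, and 12 were spindle cell tumors. All arose in wild-type female BALB/c mice whose cleared fat pads had received Trp53-null mammary fragments from several donors. The mice ate a low fat diet (LFD), a high animal fat diet (HFD) or changed from one to the other as young adults (HFD-LFD, LFD-HFD), and each tumor was labelled early or late by its latency. Host stroma, blood vessels and immune cells carried Trp53 and entered the RNA together with the tumor cells. The labels do not say which tumors share a donor.

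Each tumor RNA was hybridised against a pooled mouse reference RNA on an Agilent 2-color array. The labels put the tumor in the red channel (Cy5), whereas the study's methods name Cy5 as the reference dye, so ratios are given here in the direction opposite to that text. The Y-linked genes Ddx3y and Eif2s3y, which female mice lack, were below the reference on 41 of 41 arrays in this direction (highest log2 ratios -3.90 and -2.59). The series holds a second mismatch, since the columns that the authors' processed matrix names MSU_40R4A, MSU_57R and MSU_65R correlated best with the scanner files labelled MSU_57R, MSU_65R and MSU_40R4A (r = 0.983, 0.977 and 0.980 across genes). Only MSU_40R4A was in either group. The array of MSU_60L, the tumor with the highest score, had 22.02% of its spots marked as outliers, and the next highest share in the interferon-high group was 3.50%. The tumors MSU_117R (high) and MSU_117L (low), and MSU_11R (high) and MSU_11L (in neither group), share a number in their names, and whether either pair came from 1 mouse is not known.

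Interferons are secreted by cells that detect foreign or misplaced nucleic acid. Type I interferons act through a receptor on nearly all cells and interferon gamma, made by T and NK cells, through a receptor of its own, and both act through STAT transcription factors on a large set of target genes. Many of these targets hold the interferon-stimulated response element (ISRE), a tandem GAAA motif, near their start. In breast tumors such a program is seen both in the tumor cells and in the immune cells among them.

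The 5 score genes show what the grouping measured. Ifit1 binds foreign RNA, Isg15 is a ubiquitin-like modifier and Usp18 removes it, Irf7 is the transcription factor that amplifies type I interferon, and Oas2 makes the second messenger that activates RNase L. To show what the element looks like where it is present, up to 60 bases around the motif, before the transcription start, are printed 5′ to 3′ on the gene's strand, from RefSeq sequence of build GRCm38.p6, with each match of GAAANNGAAA or its reverse complement in capitals. Ifit1 and Isg15 are score genes, and Tcirg1 and Mitd1 are genes outside the interferon list that were higher in the interferon-high tumors.
Ifit1 (chr19:34640760-34640819, plus strand): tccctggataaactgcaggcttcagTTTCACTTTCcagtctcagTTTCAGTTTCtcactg
Isg15 (chr4:156200862-156200921, minus strand): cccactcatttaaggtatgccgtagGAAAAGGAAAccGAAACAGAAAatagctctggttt
Tcirg1 (chr19:3905395-3905454, minus strand): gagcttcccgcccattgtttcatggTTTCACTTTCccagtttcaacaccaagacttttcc
Mitd1 (chr1:37890614-37890661, minus strand): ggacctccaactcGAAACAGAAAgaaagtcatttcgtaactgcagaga
Each score gene printed here holds 2 matches and each of the other genes 1. The motif was not found in the windows of the score gene Irf7 or of Rnf135, Myo18a, Fam109a, P4ha1 and Ecrg4. In all, 2 of 3 score genes, 3 of 5 features called higher and 0 of 3 called lower that had a window held it. Beside Tcirg1 and Mitd1, the feature called higher that held it was Gm11127, which is tied to class I genes below. Over windows from 250 bases before to 50 after the start, 3.99% of 27025 genes held the motif on either strand, against 39.2% of the 186 interferon list genes with a window. Of the genes tested outside the list, 502 of 14674 held it (3.42%). Their median difference between the groups was 0.04 on the log2 scale, against 0.01 for the genes without it. A match is a description of sequence and was not tested as a binding site.

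The scores ran from 3.48 (MSU_40R4A) to 4.495 (MSU_60L) in the interferon-high group, with a median of 3.73, and from 1.29 (MSU_90R) to 2.62 (MSU_80L) in the interferon-low group, with a median of 2.02. The 9 tumors between them ranged from 2.68 to 3.47. The groups have no natural border: MSU_40R4A, just inside the high group, scored 3.476 and MSU_110R, just outside, 3.471, and MSU_80L, just inside the low group, scored 2.62 and MSU_56R, just outside, 2.68. The log2 ratio of Irf7 ran from 2.37 to 4.82 in the high group (median 3.14) and from -0.13 to 1.94 in the low group (median 1.14), with no overlap. Oas2 had the smallest distance between medians, with values from 3.37 to 4.35 (median 3.69) against 1.96 to 3.56 (median 3.10).

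**Figure D1:**
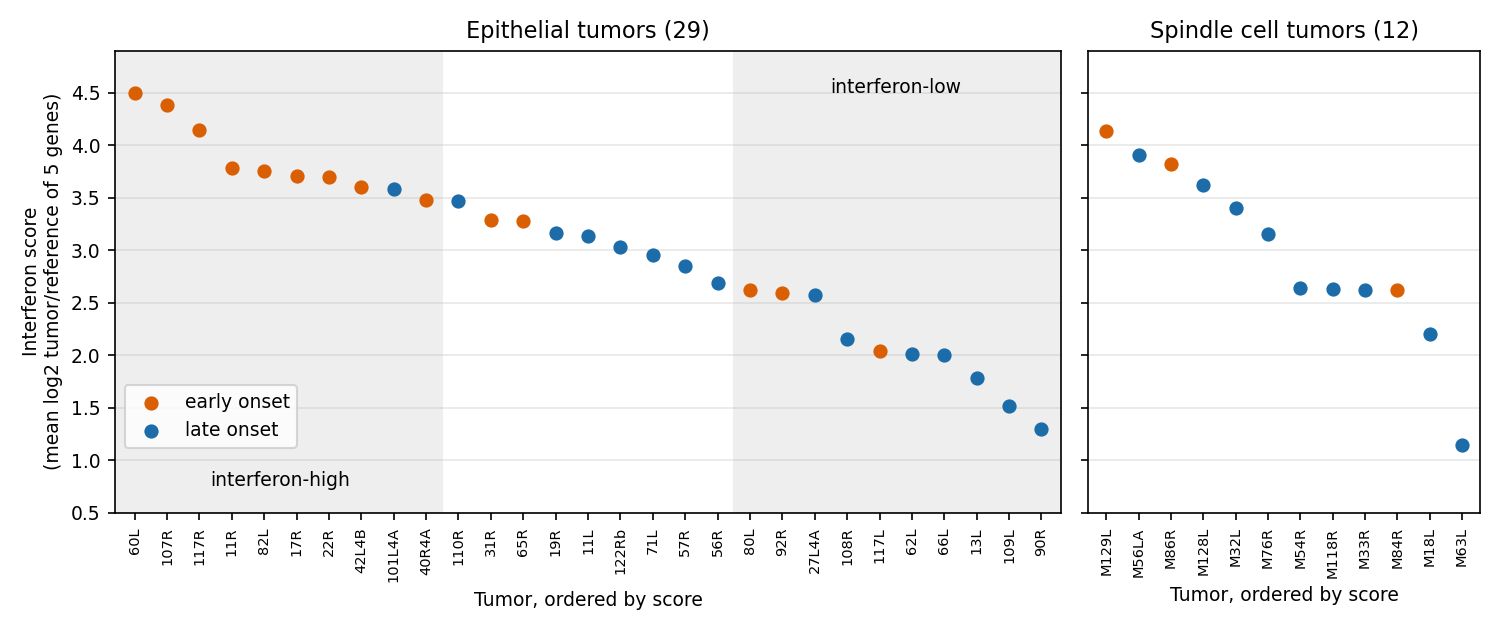
Interferon score (mean log2 ratio of tumor over reference of 5 genes, vertical axis) of each of the 29 epithelial and 12 spindle cell tumors in order of score, colored by onset, with the 10 highest and 10 lowest epithelial tumors shaded. The high group holds 9 early tumors and the low group 3, and the spindle cell tumors cover nearly the same range, from 1.14 to 4.13.

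The interferon list held 242 measured genes (Mx, Oas, Ifit, Gbp, Irg and Ifi families, class I genes and others). Because the score chose the groups, they are described without a test. Of the 242, 227 were higher on average in the interferon-high group and 15 lower, with a median difference of 0.87 on the log2 scale, against 0.01 over the 24315 genes outside the list. The list genes with the largest mean differences beside the score genes were the chemokine Cxcl10 (2.09), Mx2 (2.03), Ifi44 (2.01), Trim30d (1.99), Ifi203 (1.93), Gbp1 (1.91), Xaf1 (1.87) and Rsad2 (1.86). For Mx2, an antiviral GTPase, the mean log2 ratio was 4.06 ± 0.75 (SD, n = 10) in the high group and 2.03 ± 0.54 (SD, n = 10) in the low group.

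Outside the list few genes passed the test. In limma with Benjamini-Hochberg adjustment over all genes tested, 14 of 24315 genes were higher in the interferon-high tumors (0.0576%) and 4 were lower (0.0165%) at an adjusted p under 0.05. At an unadjusted p under 0.05, 802 were higher (3.3%) and 692 lower (2.85%). Such a p says only that a gene moved with a score from the same arrays. The 14 higher features were of 3 kinds, namely 6 genes with symbols, 4 that the array file or a RefSeq synonym ties to class I or interferon-stimulated genes although the list, which went by name, missed them, and 4 probes for which no gene was given.

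Rnf135 encodes Riplet, the ubiquitin ligase that switches on the RNA sensor RIG-I. Its probe lies at chr11:80012887-80012946 (NCBI37/mm9, the build of all probe positions here). Its log2 ratio ran from 1.204 through a median of 1.93 to 2.38 in the interferon-high tumors and from 0.18 through 0.9996 to 1.41 in the interferon-low tumors. The groups overlapped between 1.204 and 1.41, and the difference was 0.97 (SE 0.18), 1.96-fold, with a limma adjusted p of 0.0134.

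Another 4 genes with symbols differed by less. Tcirg1, a subunit of the proton pump that acidifies lysosomes and the osteoclast surface, was higher by 0.56 (SE 0.11, limma adjusted p 0.0246), and its lowest interferon-high value, 0.71, was that of a tumor of late onset. Mitd1, which acts in the last step of cell division, was higher by 0.54 (SE 0.11, limma adjusted p 0.0310). Fbxl6, an F-box protein, was higher by 0.53 (SE 0.11, limma adjusted p 0.0456). Myo18a, an unconventional myosin, was higher by 0.52 (SE 0.11, limma adjusted p 0.0463). In these 4 the groups overlapped, and the largest of these differences was 1.47-fold. For Tcirg1, Myo18a and Fam109a the spot on the array of MSU_60L was an outlier and left missing, so that 9 interferon-high tumors entered the test. These calls were not stable. When each of the 20 tumors was left out in turn, Tcirg1 passed in 13 fits, Mitd1 in 9, Fbxl6 in 5 and Myo18a in 4, against 20 of 20 for Rnf135.

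Rftn2, a relative of the lipid raft protein raftlin, was one of 4 genes that were lower. It ran from -1.99 through a median of -1.61 to -0.94 in the interferon-high tumors and from -1.36 through -0.65 to 0.31 in the interferon-low tumors. The difference was -1.08 (SE 0.20, limma adjusted p 0.0162). P4ha1, the catalytic subunit of the prolyl hydroxylase that collagen folding needs and a target of hypoxia, differed by -0.88 (SE 0.19, limma adjusted p 0.0463). Fam109a, now named Pheta1 and involved in endosomal traffic, differed by -0.62 (SE 0.10, limma adjusted p 0.00697). Its values ran from -1.33 to -0.74 in the high group and from -0.78 to 0.05 in the low group, so that they overlapped between -0.78 and -0.74. The clone-named 1500015O10Rik, now Ecrg4, which encodes a secreted protein, had the widest spread. It ran from -2.64 through -1.62 to -0.47 in the high group and from -0.80 through 0.90 to 4.87 in the low group. The difference was -2.81 (SE 0.60, limma adjusted p 0.0441). All values of the high group were below 0, and those of the low group lay on both sides. Its clone name is outside the naming rule, and it is named because only 4 genes were lower. With each of the 20 tumors left out in turn, P4ha1 passed in 4 fits and Ecrg4 in 6, whereas Rftn2 and Fam109a passed in 20.

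**Figure D2:**
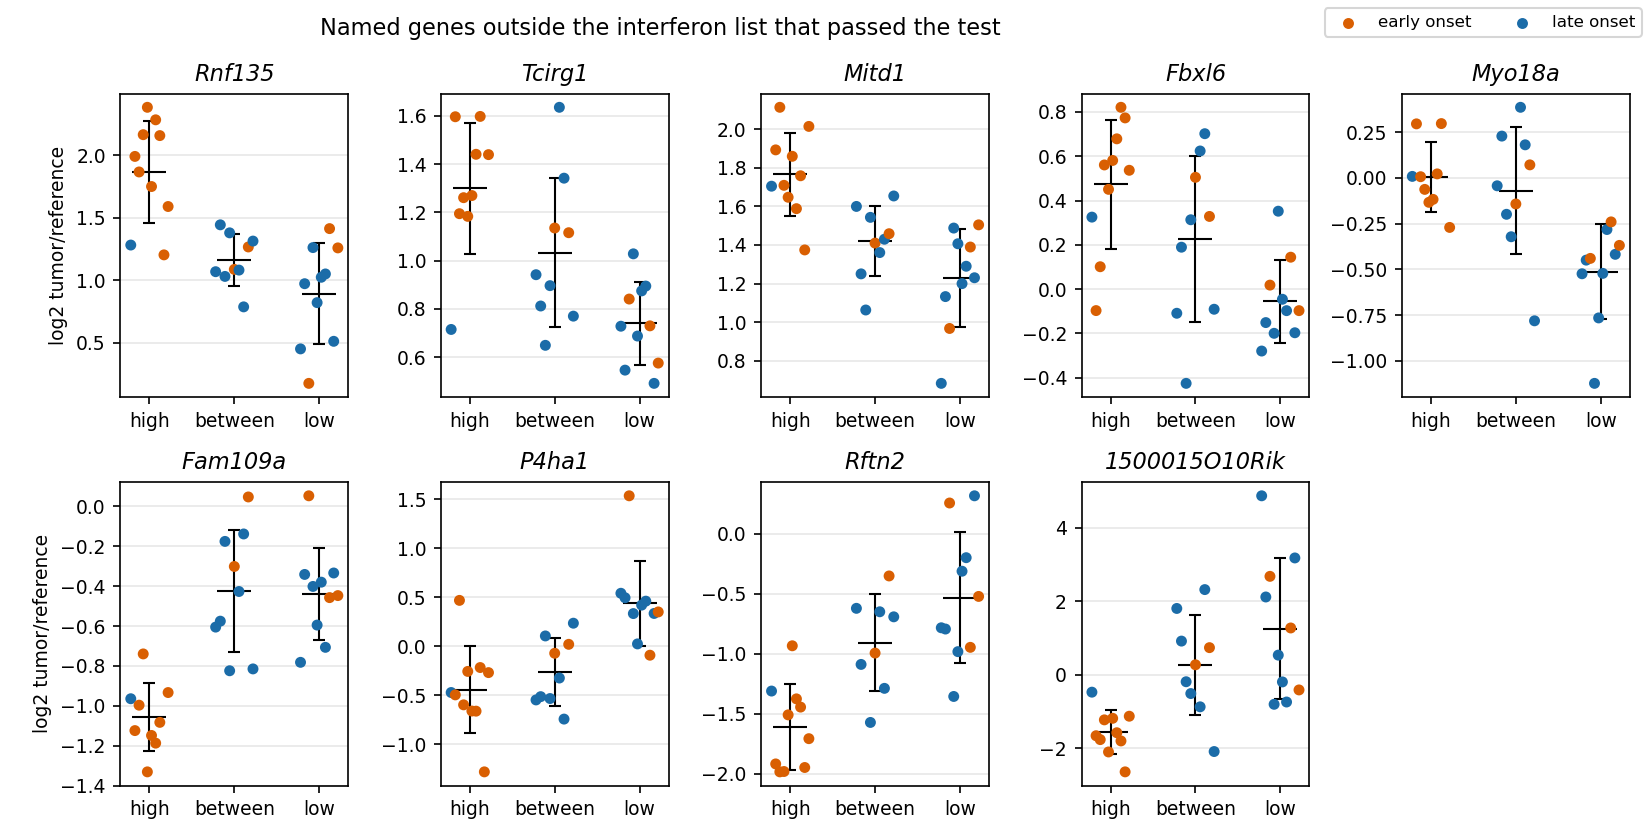
Log2 ratio of tumor over reference (vertical axis) of 9 named genes outside the interferon list that passed the test, in the interferon-high, between and interferon-low epithelial tumors, colored by onset, with the mean and SD as bars. The groups overlap in each of the 9, and for Rnf135 the overlap runs from 1.204 to 1.41.

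The 4 features tied to interferon targets by their annotation were LOC547349, described as an MHC class I family member, Gm11127, for which RefSeq gives an H2-K1 synonym, a transcript of H2-Q6 and Gm9706, whose file description is an interferon-stimulated 15 kDa protein. Their differences ran from 1.08 to 1.43. The description of Gm9706 matches the score gene Isg15, so its probe may read Isg15 RNA and is not counted as independent of the score. Probe sequences of the 3 class I features are printed 5′ to 3′, as the scanner files give them, with the longest run shared with a probe for a gene named as H2 class I in capitals.
H2-Q6 transcript probe (chr17:35565253-35565312): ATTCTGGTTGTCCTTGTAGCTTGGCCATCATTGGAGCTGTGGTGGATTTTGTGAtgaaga
Gm11127 probe (chr17:36193272-36193331): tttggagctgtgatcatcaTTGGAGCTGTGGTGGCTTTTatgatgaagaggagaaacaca
LOC547349 probe: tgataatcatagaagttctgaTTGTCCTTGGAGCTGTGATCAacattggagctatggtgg
The shared runs were 54, 20 and 21 bases, with probes for H2-Q6, H2-T23 and H2-Q2. Class I genes are near-identical copies, so these probes may take up RNA of several of them and are not independent of the list. For the 4 probes with no gene given the longest shared run was 13 bases, and their differences ran from 1.29 to 1.495. These runs were sought in 45 probes of class I genes and not in whole transcripts. They cannot tell whether the 4 probes read class I RNA, so these are not counted as separate from interferon targets.

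Lists of genes for cell types and pathways, chosen with earlier results of these data known, showed no called member apart from P4ha1. The T and cytotoxic lymphocyte list had the highest median. All 38 T and cytotoxic lymphocyte genes had a positive difference, with a median of 0.50 against 0.01 over all genes outside the list, and 12 of the 38 were higher at an unadjusted p under 0.05, beside 3.3% of all genes. None passed the adjusted threshold. The mean level of the list ran from -0.15 to 1.69 in the high group (median 0.58) and from -0.16 to 0.73 in the low group (median 0.36), so that the groups overlapped. Cd8a, the co-receptor of cytotoxic T cells, was at 0.20 ± 0.69 (SD, n = 10) in the high group and at -0.58 ± 0.35 (SD, n = 10) in the low group, with a limma adjusted p of 0.306. Cd3e, part of the T cell receptor complex, was at -0.06 ± 0.87 and -0.35 ± 0.57 (SD, n = 10 each), with a limma adjusted p of 0.910. Gene levels in whole tumors cannot tell more cells of a type from more RNA per cell.

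Antigen presentation and B cell genes had the next highest medians. For the 9 MHC class II genes the median was 0.46, with 3 higher at an unadjusted p under 0.05, among them H2-Aa (difference 1.45) and the invariant chain Cd74 (0.92), named after their values were seen. The interferon list held other class II genes, such as H2-DMa and H2-DMb1, so it divides this family. For the 18 B and plasma cell genes the median was 0.41 (0.21 without MSU_40R4A), with 1 higher at that level. Of 15 dendritic cell genes 5 were higher at an unadjusted p under 0.05 (median 0.21, and 0.36 without MSU_60L), and of 32 macrophage genes 4 (median 0.18, from 0.11 without MSU_90R to 0.30 without MSU_62L). The macrophage receptors Csf1r (difference 0.32) and Emr1 (0.13) and the dendritic cell integrin Itgax (0.21) had limma adjusted p of 0.909, 0.955 and 0.948. The 17 neutrophil genes had a median of -0.04 (from -0.13 without MSU_90R to 0.13 without MSU_62L, and 0.03 without MSU_82L), and S100a8 differed by -0.15 (SE 0.91).

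Of 19 interferon ligands and receptors on the array 15 had a positive difference, with a median of 0.06 (0.02 without MSU_90R to 0.10 without MSU_108R) and none called between the extreme groups. Ifnb1, the first type I interferon to be made after nucleic acid sensing, had the lowest unadjusted p of the list, with a mean of 0.89 ± 0.55 in the high group and 0.24 ± 0.16 in the low group (SD, n = 10 each) and a limma adjusted p of 0.190. Among 26 interferon signaling and sensor genes outside the list, Irf5 (difference 0.90, limma adjusted p 0.192) and Irf8 (0.73, limma adjusted p 0.231) came first. In the 18 immune checkpoint genes the inhibitory receptor Lag3 was closest to the threshold, with a difference of 0.75 and a limma adjusted p of 0.0988. These genes were named after their values were seen.

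The stromal and vascular lists lay on the other side. Of 20 endothelial genes 3 had a positive difference, with a median of -0.27, and 4 were lower at an unadjusted p under 0.05, beside 2.85% of all genes. Pecam1, the adhesion molecule of endothelial cells, did not share this, with a difference of 0.06 (SE 0.27). Of 24 fibroblast and mesenchymal genes 4 had a positive difference, with a median of -0.28 and 3 lower at an unadjusted p under 0.05, and Vim, an intermediate filament, differed by -0.49 (limma adjusted p 0.828). Of 17 collagen genes 2 had a positive difference, with a median of -0.23, which ran from -0.35 without MSU_90R to -0.07 without MSU_62L when 1 tumor was left out (-0.10 without MSU_101L4A, -0.12 without MSU_66L). The list levels overlapped widely between the groups, from -1.86 to -0.14 against -1.76 to -0.50 for the endothelial list.

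The luminal keratin and surface list had a median of 0.27, with 11 of 16 genes positive and 2 higher and 1 lower at an unadjusted p under 0.05, and the epithelial junction list a median of 0.19, with 16 of 23 positive and 2 higher. The luminal median was 0.42 without MSU_117R and the junction median 0.12 without MSU_60L. None of the single epithelial markers passed the adjusted threshold. The luminal keratins Krt8 (difference 0.35, limma adjusted p 0.906) and Krt18 (0.47, limma adjusted p 0.877), the basal keratin Krt5 (0.17, limma adjusted p 0.983), the adhesion molecules Epcam (0.60, limma adjusted p 0.871) and Cdh1 (0.76, limma adjusted p 0.667) and the estrogen receptor Esr1 (0.32, limma adjusted p 0.908) were all higher on average in the high group, and Cdh1 had an unadjusted p of 0.0247. The proliferation marker Mki67 was at 0.12 ± 0.35 (SD, n = 9) in the high group and 0.10 ± 0.51 (SD, n = 10) in the low group. Fat and muscle stayed far below the reference in both groups, with Adipoq at -2.80 and -3.42 and Acta1 at -5.42 and -5.57 on average. Trp53, absent from the transplanted cells and present in the host, ran from -1.11 to 1.41 in the high group and from -1.33 to 0.73 in the low group (limma adjusted p 0.831). Which part of Trp53 the probe covers relative to the null allele was not tested.

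**Figure D3:**
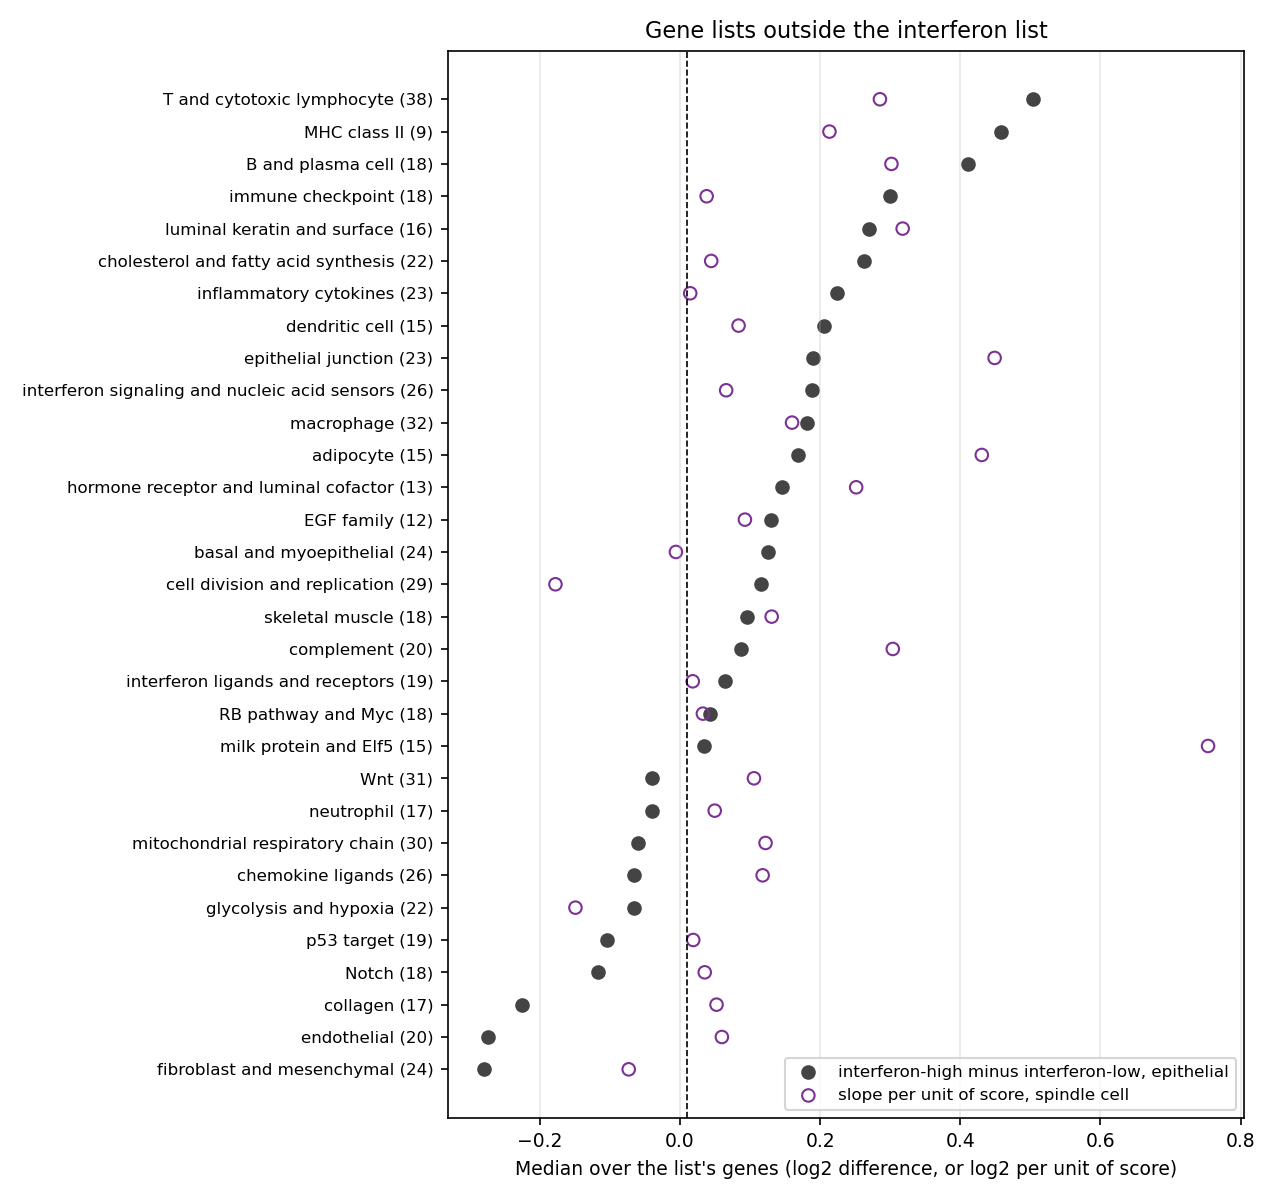
Median over each list's measured genes (number in brackets) of the log2 difference between interferon-high and interferon-low epithelial tumors (filled) and of the slope per unit of score in 12 spindle cell tumors (open), with the median of all genes outside the interferon list (0.01) as a dashed line. The T and cytotoxic lymphocyte list lies highest in the epithelial comparison and the fibroblast and endothelial lists lowest.

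When the score was used as a continuous measure over all 29 tumors, 70 genes outside the list rose with it (0.288%) and 45 fell (0.185%) in limma at an adjusted p under 0.05. Of the 14 features called higher between the extreme groups 12 were among them, and of the 4 called lower 3. The 29 tumors include the 20 of the groups and the score is the same, so this overlap is no separate support. RefSeq named 19065 of all 24557 genes. Of the genes that fell 41 of 45 had symbols, against 33 of the 70 that rose. Among the former were Angpt2, a ligand of the endothelial receptor Tie2 (slope -0.55 per unit of score, SE 0.11, limma adjusted p 0.00752), Notch4 (-0.32, limma adjusted p 0.0345), Jam2 (-0.63, limma adjusted p 0.0266) and Bcl6b (-0.33, limma adjusted p 0.0139). None of the 20 genes of the endothelial list was called. Among those that rose were Rnf114, a ubiquitin ligase (0.41, limma adjusted p 0.00012), Casp8, which starts cell death from surface receptors (0.34, limma adjusted p 0.0238), Lag3 (0.39, limma adjusted p 0.0271), Cybb, the phagocyte oxidase (0.51, limma adjusted p 0.0271), and Ifnb1 (0.33, limma adjusted p 0.0364). Zmat3, a target of p53, fell (-0.30, limma adjusted p 0.0130). These examples were chosen after their values were seen.

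The 12 spindle cell tumors had no part in the grouping, and slopes on the score were fitted in them separately. All 12 were on slides and in a scan session of their own. Where slopes are compared with epithelial tumors, histology cannot be told apart from slide or session. Their score comes from the same interferon genes on the same arrays, so the slopes of interferon list genes are no finding. Their scores ran from 1.14 to 4.13. Of 237 interferon list genes other than the score genes, 216 had a positive slope on the score and 25 were called, all positive, whereas outside the list 7 of 24302 genes rose (0.0288%) and 1 fell (0.00411%) in limma at an adjusted p under 0.05. At an unadjusted p under 0.05, 795 rose (3.27%) and 523 fell (2.15%). These counts rest on MSU_M63L, the tumor with the lowest score. Without it 1 gene of the interferon list and none outside it was called.

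Of the 14 features called higher in epithelial tumors 13 had a positive slope in spindle cell tumors. At an unadjusted p under 0.05 there were 10, beside 3.27% of all genes, and 2 of these were genes with symbols. The others are not counted as separate from interferon targets. The score is made of such targets, so their slopes are no finding. Only LOC547349 (slope 0.81, SE 0.12, limma adjusted p 0.0210) and Gm9706 (0.72, SE 0.11, limma adjusted p 0.0339) passed the adjusted threshold, both tied by annotation to interferon targets. For Gm9706 that target is Isg15 by its description, and Isg15 entered the score in these tumors too. Of the 6 genes with symbols 5 had a positive slope and none passed. Rnf135 had a slope of 0.43 (SE 0.15, limma adjusted p 0.652), with an unadjusted limma p of 0.0148. Tcirg1 had a slope of -0.02 (SE 0.10).

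Of the 4 genes that were lower, 1 (P4ha1, slope -0.08, SE 0.21) kept its sign. Rftn2 had a slope of 0.25 (SE 0.21) and Fam109a of 0.03 (SE 0.13). Ecrg4 had a slope of 1.02 (SE 0.42, limma adjusted p 0.758), opposite to its slope of -1.37 (SE 0.31) in epithelial tumors. The difference between these slopes was -2.40 (SE 0.56) for Ecrg4 and -0.81 (SE 0.20) for Rftn2, with limma adjusted p of 0.229 and 0.283 over all genes, so no difference in slope passed the test for any of the 18 features. In the spindle cell tumors 34 of 38 T and cytotoxic lymphocyte genes had a positive slope, with a median of 0.29 against 0.01 over all genes outside the list. Of the 38, 11 were positive at an unadjusted p under 0.05, beside 3.27% of all genes. This was not particular to that list. All 18 B and plasma cell and all 15 adipocyte genes were positive. The milk protein and epithelial junction lists had higher medians (0.75 and 0.45). Of 29 cell division genes 5 were positive, and of 20 endothelial genes 13.

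**Figure D4:**
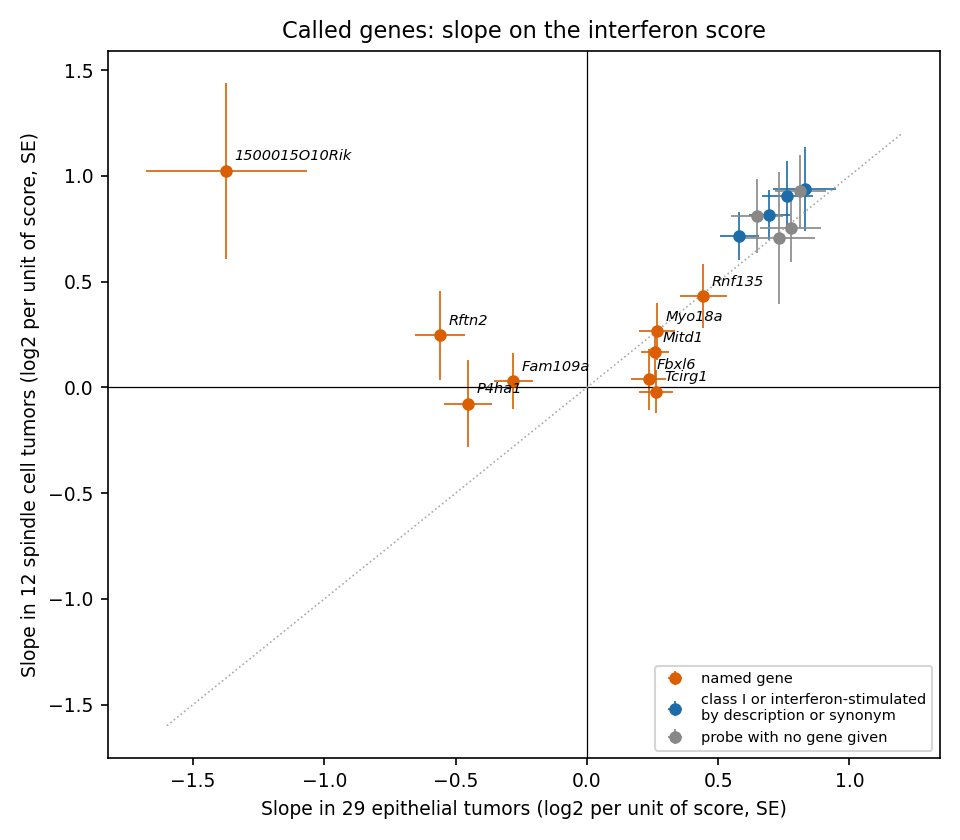
Slope on the interferon score (log2 ratio per unit of score, with SE) of 17 of the features called outside the interferon list, in the 29 epithelial (horizontal axis) and the 12 spindle cell tumors (vertical axis). Features tied to interferon targets, probes with no gene given, Rnf135, Mitd1 and Myo18a lie near the line of equal slopes. The 4 genes with negative slopes in epithelial tumors lie near or above 0 in spindle cell tumors.

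Onset moved with the score, although several slides held tumors of a single onset, so onset and slide cannot be fully told apart. The interferon-high group held 9 early tumors of 10 and the interferon-low group 3 of 10 (Fisher's exact test, two-sided, p = 0.0198, adjusted over 3 labels p = 0.0593). Over all 29 tumors, a comparison added after these counts were seen, the 14 early tumors had a mean score of 3.49 ± 0.69 and the 15 late tumors of 2.55 ± 0.71 (SD), a difference of 0.94 (permutation test, two-sided, p = 0.00149). In the spindle cell tumors the 3 early tumors had a mean of 3.52 and the 9 late tumors of 2.81 (exact permutation test, two-sided, p = 0.218). Diet did not differ in the same way. LFD gave 3 high and 2 low tumors, HFD 3 and 2, HFD-LFD 2 and 3 and LFD-HFD 2 and 3 (Fisher's exact test, two-sided, p = 1).

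With onset as a covariate no gene outside the list was called in either direction, although all 18 features kept their direction and 342 genes were higher and 352 lower at an unadjusted p under 0.05. Fam109a then differed by -0.69 (limma adjusted p 0.170) and Rnf135 by 0.82 (limma adjusted p 0.624). Among the early tumors alone, 9 high against 3 low, none was called higher and 1 lower, with all 18 features in the same direction. The 18 were chosen on groups that hold these same tumors. Their kept direction, here and with the covariate, is therefore no separate support. What part onset has in these differences was not tested further.

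Slide and array quality were compared in the same way. Of the 20 tumors, the 3 on one slide and the 2 on another were all high, the 3 on a further slide and the 2 on each of 2 others were all low, and the remaining slides held both groups (Fisher's exact test over 8 slides, two-sided, p = 0.0704, adjusted p = 0.106). All epithelial tumors on the all-high slides were early, and all on the all-low slides with 2 low tumors each were late. Slide and onset therefore cannot be fully told apart in these groups. Nearly every slide also held epithelial tumors of a single regimen, so slide and diet cannot be fully told apart either. When slide entered the fit as a fixed term, 5 of the 18 features passed and all 18 kept their direction, in the same tumors that chose them. The share of spots above background was 69.8 ± 5.00% in the high group and 73.4 ± 10.3% in the low group (SD, n = 10 each, permutation test, two-sided, adjusted p = 0.554). The tumors MSU_60L and MSU_42L4B came from a scan session of their own, and both were high. Without them 32 genes outside the list were called higher and 6 lower, and 14 of the 18 features passed again.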

How the data were processed

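RNA of 41 tumors was measured on 2-color arrays. The deposited scanner files give the intensity of each spot in both channels, and the matrix deposited by the authors holds normalized log2 ratios, with 21.6% of values blank. The labels name Agilent Feature Extraction 8.5.1.1, whereas the files name 11.0.1.1 (29 arrays) and 10.5.1.1 (12 arrays). The score came from the processed signals. For all tests limma 3.58.1 in R 4.3.3 applied normexp (offset 50) and loess, outlier spots were left missing, and probes above 10 over background in both channels on 80% of arrays were kept (32125 probes, 24557 genes, the brightest probe per gene). Differences were tested with lmFit and eBayes, Benjamini-Hochberg adjusted over all genes, threshold 0.05. The interferon list (genes known to be interferon-induced and their families, by name) stayed in the fit without a test between the groups. The 2 groups, the members and all lists were chosen with earlier results of these data known.

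The rule for named genes took up to 12 called genes in each direction with a symbol, no clone name and signal well above background on at least 5 arrays of each group, up to 5 called members of each list, the defining markers and, of the interferon list, the score genes and up to 8 others. Genes outside it are said to be chosen after their values were seen. Labels were compared by Fisher's exact test and array quality by permutation (100000 resamples). RefSeq (GRCm38.p6) named 19065 of the genes and gave promoter windows for 27025. Alternatives changed background, normalization, filter, probe choice, matrix, threshold, covariates, slide, score, group size and tumors. The code was tested on simulated data. Precision is set by how many tumors there are, and for dim probes by signal over background. Tumors count as replicates as labelled, and whether any shared a donor or host is not known. Of the genes the rule took, 1 called gene and 1 marker are counted but not reported here.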

Additional observations from a re-analysis of the deposited data

Results flagged for a closer look

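Of 67 groups of 10 tumors tested, 11 held a tumor whose gap to its nearest neighbor exceeded the critical share of the range, where chance flags about 1 in 20. Among genes, the probe A_55_P2100824 was at 3.01 in the interferon-high tumor MSU_101L4A, below the others (3.64 to 4.00). P4ha1 was at 1.53 in the interferon-low tumor MSU_117L, above the others (-0.09 to 0.54). Emr1 was at 2.12 in the interferon-low tumor MSU_62L (others 0.26 to 0.83). In the interferon-low tumor MSU_13L Epcam was at -1.61 (others 1.30 to 2.61) and Mki67 at 1.32 (others -0.42 to 0.29). In the interferon-high tumor MSU_60L Itgax was at 1.35 (others 3.03 to 4.29) and Esr1 at 3.08 (others -0.51 to 1.02).

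Among array measures, the array of MSU_60L had 22.02% outlier spots (other interferon-high tumors 0.477% to 3.50%) and that of MSU_90R had 1.56% (other interferon-low tumors 0.535% to 1.004%). The median signal of MSU_109L was 406 in the tumor channel (other interferon-low tumors 100.2 to 248) and 409 in the reference channel (others 127 to 271). No explanation was tested.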

How the results depend on the processing

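All 18 features called outside the interferon list kept their direction under each alternative run, whereas the counts of calls (14 higher, 4 lower) moved, and the cause was not tested. The runs drew on the tumors that chose the 18, so a kept direction is no separate support. Higher and lower calls numbered 30 and 5 from the scanner's processed signals, 9 and 6 when background was left in, 2 and 0 by median centring instead of loess, 14 and 2 without a filter, 22 and 5 in the authors' matrix, 21 and 12 at an adjusted p under 0.10, 16 and 7 when slide was a random block, 16 and 17 when it was fixed (5 of the 18 called again), 0 and 0 with onset and 8 and 3 with regimen as a covariate, 27 and 12 for the 7 extreme tumors on each side, 2 and 1 for 14 on each side, and 70 and 45 with the score continuous. They were 7 and 2 with a score without Ifit1 or without Usp18, and 22 and 7 without Irf7. With the score taken from normexp and loess ratios they were 12 and 5, with 3 of the 18 called again. Leaving out 1 tumor gave 6 to 21 higher (6 without MSU_11R or MSU_109L, 21 without MSU_101L4A) and 2 to 11 lower (11 without MSU_27L4A). Counts below 10 higher came without MSU_107R (7), MSU_17R (8), MSU_22R (7), MSU_40R4A (9), MSU_90R (7) and MSU_117L (8), and 8 were lower without MSU_13L. Comparisons added after seeing the data gave 32 and 6 without MSU_42L4B and MSU_60L, 0 and 1 in early tumors alone, and 9 and 2 without MSU_117R and MSU_117L. Without MSU_42L4B, MSU_60L, MSU_40R4A, MSU_57R and MSU_65R there were 22 and 5.

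In spindle cell tumors the calls outside the list were 17 higher with processed signals, 0 higher and 0 lower with median centring, 2 lower in the authors' matrix, 16 higher at 0.10, 11 higher when slide was a random block, 1 higher with the normexp score, and 1 higher and 0 lower with onset as a covariate. Leaving out 1 tumor gave 0 to 7 higher and 0 to 1 lower. Calls in the interferon list (25) became 55 from processed signals, 45 with background left in, 9 by median centring, 42 in the matrix, 43 at 0.10, 40 without MSU_M32L, MSU_M76R and MSU_M86R, and 1 (without MSU_M63L) to 35 when 1 tumor was left out. The adjusted p for onset was 0.014 with 7 and 0.0211 with 14 tumors a side, and 0.209 with the normexp score (8 high and 3 low tumors early). The permutation test of mean scores over all 29, a different test, gave 0.00149. The adjusted p for outlier spots was 0.0378 with the normexp score. The checkpoint median was 0.65 with processed signals. When slide was fixed the medians were 1.37 (MHC class II), 1.203 (B and plasma cell), -0.69 (basal) and -0.14 (cholesterol and fatty acid synthesis). No paired analysis was possible because fewer than 2 numbers are shared between the groups (MSU_117R and MSU_117L alone). For dim probes signal over background is the limit.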
